A study of Mus musculus with 6 samples.

Results

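Vesicle and membrane trafficking genes were described across 6 arrays of mouse optic nerve. They were the genes whose symbol begins with Rab, Arf, Arl, Sec, Vps, Snx, Stx or Vamp followed by a digit, with Snx5 left out, each read on its probe with the highest mean signal. The rule found 128 genes of the 6656 named genes that could be read on the arrays: 43 Rab, 6 Arf, 6 Arl, 19 Sec, 19 Vps, 17 Snx, 11 Stx and 7 Vamp symbols. A symbol is not always a role: Rab11fip3, Rab11fip5, Rab3il1, Rab3ip and Arl2bp encode partners of small GTPases, Sec14l1 and Sec14l2 are lipid-binding proteins, and Vps72 is a chromatin protein. The nerves came from mice lacking leukemia inhibitory factor (LIF-/-, on the CD1 background), a cytokine of the interleukin-6 family, and from CD1 wild-type mice, all labelled male and untreated, at postnatal days 10, 14 and 35, the last being adult. Each array held RNA of 1 pool, made of 10 nerves at day 10, 8 at day 14 and 4 at day 35, so each of the 6 groups had 1 array and no replicate pool. The series asks how LIF bears on the timing of oligodendrocyte development and myelination.

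Membrane proteins enter the secretory route through the Sec61 channel of the endoplasmic reticulum, leave it in vesicles with a COPII coat (Sec13, Sec23, Sec24) and pass the Golgi. Rab, Arf and Arl proteins are small GTPases that mark each membrane and recruit motors, coats and tethers; Vps complexes tether membranes and sort cargo, sorting nexins shape endosomes, and the SNAREs (syntaxins and VAMPs) drive fusion. An oligodendrocyte uses these routes to deliver large amounts of myelin protein and lipid to its surface, and axons carry vesicles of the same machinery.

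The promoter windows of 5 genes are shown first because each of these genes differed between day 10 and day 35, as described below. Rab23, Arl3 and Sec23ip moved upward and Rab33a and Stx1a downward. The first 3 were also chosen because they are the risen genes whose window holds the E-box CACGTG. The bases beside the E-box were not part of the search. Each window is 300 bases from RefSeq (GRCm38.p6), from 250 bases before to 50 after the gene's start, written 5′ to 3′ on the gene's strand. Capitals mark CACGTG (the E-box), TGACGTCA (the cyclic AMP response element), CCAAT (the CCAAT box) and GGGCGG (the GC box), searched on both strands, so that CCGCCC is a GC box on the other strand. In the Arl3 window the last base of the E-box is the first of a GC box. The Rab23 window is chr1:33719646-33719945 on the plus strand, Arl3 is chr19:46573133-46573432 on the minus strand, Sec23ip is chr7:128744620-128744919 on the plus strand, Rab33a is chrX:48519035-48519334 on the plus strand and Stx1a is chr5:135023232-135023531 on the plus strand.
Rab23: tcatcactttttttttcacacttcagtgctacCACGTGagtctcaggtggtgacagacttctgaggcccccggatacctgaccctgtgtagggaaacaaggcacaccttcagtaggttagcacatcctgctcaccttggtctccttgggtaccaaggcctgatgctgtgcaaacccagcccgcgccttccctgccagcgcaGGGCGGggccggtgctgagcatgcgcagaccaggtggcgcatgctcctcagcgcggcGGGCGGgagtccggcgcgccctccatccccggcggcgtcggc
Arl3: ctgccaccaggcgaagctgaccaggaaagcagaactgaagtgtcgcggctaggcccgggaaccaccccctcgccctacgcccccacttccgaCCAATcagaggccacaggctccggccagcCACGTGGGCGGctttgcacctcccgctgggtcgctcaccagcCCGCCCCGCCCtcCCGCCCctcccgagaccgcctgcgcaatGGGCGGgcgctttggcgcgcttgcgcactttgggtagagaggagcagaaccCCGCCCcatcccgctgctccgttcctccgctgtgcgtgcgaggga
Sec23ip: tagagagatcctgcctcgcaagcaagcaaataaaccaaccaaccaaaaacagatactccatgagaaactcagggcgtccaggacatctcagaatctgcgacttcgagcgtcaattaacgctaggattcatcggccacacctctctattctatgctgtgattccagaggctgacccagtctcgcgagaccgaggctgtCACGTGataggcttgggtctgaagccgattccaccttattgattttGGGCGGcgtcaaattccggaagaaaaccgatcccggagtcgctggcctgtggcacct
Rab33a: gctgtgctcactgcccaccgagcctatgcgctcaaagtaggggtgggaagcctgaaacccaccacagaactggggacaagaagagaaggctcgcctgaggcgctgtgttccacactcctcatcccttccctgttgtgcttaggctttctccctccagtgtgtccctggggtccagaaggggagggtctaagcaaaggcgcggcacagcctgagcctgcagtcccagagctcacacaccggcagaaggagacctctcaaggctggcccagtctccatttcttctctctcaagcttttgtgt
Stx1a: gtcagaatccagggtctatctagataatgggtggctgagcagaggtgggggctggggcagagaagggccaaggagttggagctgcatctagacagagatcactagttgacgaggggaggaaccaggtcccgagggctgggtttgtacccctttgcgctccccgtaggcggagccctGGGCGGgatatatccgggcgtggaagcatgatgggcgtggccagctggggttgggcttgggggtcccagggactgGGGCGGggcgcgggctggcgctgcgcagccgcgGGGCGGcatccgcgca

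Windows were found for 107 of the 128 genes. CACGTG was present in 18 of these windows (16.8%), against 9.85% of the windows of 5350 named genes tested on the arrays and 7.24% of all 27025 windows. GGGCGG was present in 77.6% of the trafficking windows, 64.4% of the named and 35.9% of all. CCAAT was found in 40.2%, 38.6% and 37.9%, and TGACGTCA in 1.87%, 3.31% and 1.88%. The ER stress response element, a longer motif that begins with a CCAAT box, was in 0 of the 107 windows and in 0.13% of all. The median number of CpG dinucleotides was 24 in the trafficking windows, 20 in the named and 7 in all. Of the genes described below as higher at day 35 than at day 10, 11 have a window, and 3 of them (27.3%) hold CACGTG; of those lower, 6 have one and 0 hold it. These are matches of letters, not measured binding.

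Most of these genes were detected on every array, some of them near background, such as Rab39 at 61.0 to 80.4 signal units. At a detection p below 0.05, 121 of the 128 were detected on all 6 arrays, 5 on 5 arrays and Rab37 on 4. Sec16b was detected on 1, the knockout array of day 10, and was not tested, which left 127. Of the 13827 probes detected on at least 2 arrays, 10656 were detected on all 6. A gene could be named only through a filled row of the authors' table, so its detection may be partly fixed by how it entered. Signals are given as normalized log2 intensity; a signal depends on its probe, so signals of different genes are not set against each other. Rab2a, a GTPase of traffic between endoplasmic reticulum and Golgi, read 12.19 in both genotypes at day 10, 12.28 in the wild type and 12.08 in the knockout at day 14, and 12.22 and 12.29 at day 35. Its 6 values lay close together and the genotypes overlapped. Rab11b of the recycling endosome stayed between 11.88 and 12.14, Sec13 of the COPII outer coat between 10.93 and 11.38, Vps28 of the ESCRT-I complex between 11.88 and 12.15, Arf1 of the Golgi between 10.18 and 10.58, and Stx8 of the late endosome between 9.17 and 9.51. Vamp2, the SNARE of regulated secretion, stayed between 9.45 and 9.95.

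Depth and labels bear on what follows. An array detected 12222 to 13292 probes and had a median intensity of 51.8 to 61.9. Days 10 and 14 were run on 1 slide and day 35 on another, so age up to day 35 and slide cannot be told apart. The 18S ribosomal RNA control read 3060.6 to 3812.3 signal units on the arrays of days 10 and 14. On those of day 35 it read 1654.8 (wild type) and 1575.5 (knockout), and its part in the results was not tested. Lif itself was detected on every array, the knockout ones included (detection p 0.0049 to 0.0292), though near background. Wild-type and knockout arrays read 75.4 and 88.2 signal units (day 10), 76.6 and 56.0 (day 14) and 57.0 and 60.7 (day 35). The genotype labels are therefore not checked by Lif, and why it was detected in the knockout was not tested. The Y-linked Eif2s3y was not detected on the knockout array of day 35 (39.5 signal units) or the wild-type array of day 10 (55.4), and Kdm5d was not detected on the knockout array of day 35 (37.5), although all pools are labelled male; on the other arrays they were detected, at 72.3 to 701.5 and 73.8 to 168.5. Counts without each array are therefore given below. Summed over 11 oligodendrocyte markers, wild-type and knockout signals were 63180 and 44802 (day 10), 77517 and 74417 (day 14) and 85235 and 82143 (day 35), with all 11 detected on every array. Skeletal muscle markers summed to 10121 on the knockout array of day 35 and 404 to 4674 on the others, photoreceptor markers to 1016 on the knockout array of day 14 and 239 to 461 on the others, and the neuroendocrine list to 337 to 2116. The part of these tissues in the results was not tested. In whole nerve, fewer cells of a type and less RNA per cell cannot be told apart.

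Day 35 was compared with day 10 over both genotypes, to see which trafficking genes differ between the early and the adult nerve. Of the 127 genes, 22 differed (limma, Benjamini-Hochberg over all 13827 probes, adjusted p below 0.05), 15 higher and 7 lower at day 35, or 14 and 7 without Rab37, whose probe was named through the day 35 arrays. With Rab37 counted, that is 17.3% of the trafficking genes, against 20.8% of all probes and 23.5% of the 6616 named genes. The higher ones made 11.8% (10.6% of all probes) and the lower ones 5.51% (10.2% of all probes). The split by direction depended on scaling. With no normalization between arrays it was 3 higher and 9 lower, while the median of all probes moved to -0.24 log2 from -0.04. With the authors' scaling it was 4 higher and 22 lower, and the median was -0.27 over the 8364 probes tested there. All 22 kept their sign with no normalization, and all 21 with values did with the authors' scaling, also relative to those medians. The median change was 0.05 log2 for the trafficking genes, from -1.58 to 2.68. It was 0.43 for Vamp, 0.31 for Snx, 0.21 for Stx, 0.07 for Vps, -0.01 for Rab, -0.11 for Sec, -0.19 for Arf and -0.22 for Arl. The 7 Vamp genes were all above 0 (1 passed the test), against 6558 of all 13827 probes. Vamp2 stood at only 0.05, and Vamp8 at 0.81 on its brightest probe but -0.21 on its dimmer one.

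**Figure D1:**
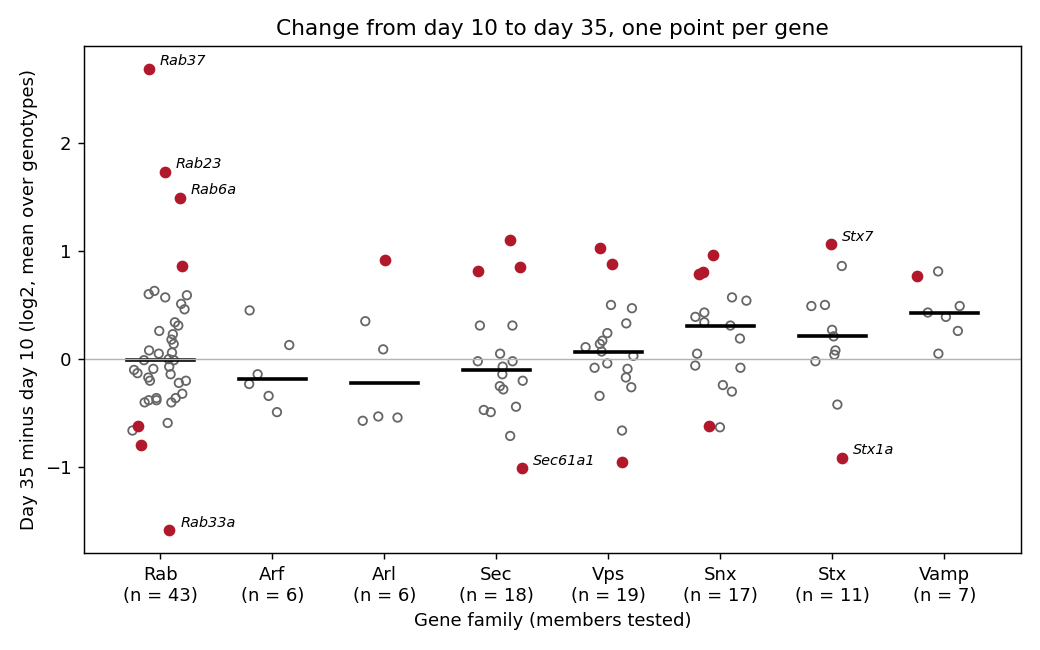
Difference in normalized log2 signal, day 35 minus day 10, averaged over genotypes, for the 127 tested genes by family. Each point is a gene, filled where the adjusted p was below 0.05, and each bar is a family's median; Rab genes span -1.58 to 2.68, and no Arf gene is filled.

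Among the 43 Rab genes, 4 passed upward, Rab37 included, and 3 fell. Here and in the families below, the counts stand against 10.6% of all probes higher and 10.2% lower. The split by direction over all families depended on scaling, as given above. Rab23, which restrains Sonic hedgehog signalling and works at the primary cilium, read 5.78 (wild type) and 5.54 (knockout) on the day 10 arrays, 5.81 and 5.54 on those of day 14 and 7.38 and 7.40 on those of day 35. Both day 35 arrays lay above the other 4, and the genotypes overlapped. The change was 1.73 log2 (SE 0.17, 3.32-fold, limma adjusted p = 0.00917). Rab6a, a GTPase of Golgi traffic, read 7.42 and 6.59, then 6.77 and 6.72, then 8.77 and 8.21 in wild type and knockout. It was highest on both day 35 arrays and, within each age, lower in the knockout, though by only 0.05 at day 14. Its dimmer probe differed between genotypes by -0.37, 0.24 and -0.39 at days 10, 14 and 35, so the order at day 14 rests on the probe. The change was 1.49 (SE 0.23, limma adjusted p = 0.0161), and its dimmer probe gave 0.99 (limma adjusted p = 0.0318). Rab5b, of the early endosome, rose by 0.86 (SE 0.19, limma adjusted p = 0.0326), and its other probe by 0.90.

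Rab37, known from secretory granules of mast cells, is described with no test. Its probe could be named only through table rows filled on the day 35 arrays alone, so a high value there was part of how it entered, as it was for Snx9, which differed by 0.31. Wild-type and knockout values were 4.94 and 4.66 (day 10), 4.70 and 4.97 (day 14) and 7.50 and 7.45 (day 35). It was near background on the first 4 arrays and not detected on the knockout array of day 10 and the wild-type array of day 14. The difference was 2.68 log2, taken in part against an array on which it was not above background. Gh, growth hormone of the pituitary and a gene of the neuroendocrine list, read 4.36 to 4.51 on the first 4 arrays and 7.55 and 7.54 at day 35; its part in the Rab37 value was not tested.

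Rab33a, a Golgi-associated GTPase of brain and immune cells, fell. It read 10.97 (wild type) and 10.81 (knockout) on the day 10 arrays, 10.95 and 10.86 on those of day 14 and 9.43 and 9.18 on those of day 35. The first 4 arrays lay within a narrow band above both day 35 arrays, and the knockout was the lower of each pair. The change was -1.58 (SE 0.16, 2.99-fold lower, limma adjusted p = 0.00942). Rab8a, of transport from the Golgi to the plasma membrane and the cilium, changed by -0.79 (SE 0.18, limma adjusted p = 0.0366; -0.45 on its dimmer probe, which did not pass) and Rab5c, of the early endosome, by -0.62 (SE 0.16, limma adjusted p = 0.0440). Rab5b and Rab5c thus passed in opposite directions. How far probes of such close paralogs share target RNA was not tested.

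Of the 6 Arf and 6 Arl genes, Arl3 alone passed. Arl3, which releases lipidated cargo into cilia, read 8.86 and 9.09 (day 10), 8.86 and 8.79 (day 14) and 9.81 and 9.97 (day 35) in wild type and knockout. Both day 35 values were above the rest, and neither genotype was higher at all ages. The change was 0.92 (SE 0.17, limma adjusted p = 0.0225). Arf4, the Arf gene with the largest change, was at -0.49 and did not pass.

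Of the 18 Sec genes tested, 3 rose and 1 fell. Sec61a1, the pore-forming subunit of the translocation channel, read 8.53 (wild type) and 8.34 (knockout) on the day 10 arrays, 8.52 and 8.49 on those of day 14 and 7.56 and 7.29 on those of day 35. Both day 35 values lay below the other 4. The change was -1.01 (SE 0.16, 2.01-fold lower, limma adjusted p = 0.0182). Its paralog Sec61a2 was at -0.28 on its brightest probe and 1.36 on a dimmer probe (limma adjusted p = 0.0211). Sec23a, of the inner COPII coat, changed by 1.10 (SE 0.29, limma adjusted p = 0.0475), from 5.09 and 5.28 at day 10 to 6.13 and 6.43 at day 35; it was not detected on the knockout array of day 14, and its call held under 2 of 7 alternative settings. Sec23ip, a partner of Sec23, rose by 0.85 (SE 0.21, limma adjusted p = 0.0431) and Sec22a, of the Sec22 family, by 0.81 (limma adjusted p = 0.0440; 1.49 on its dimmer probe).

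The Vps family, of 19 genes, had 2 rising genes and 1 falling gene. Vps35, the core of the retromer that returns receptors from endosomes, read 10.26 (wild type) and 10.52 (knockout) on the day 10 arrays, 10.82 and 10.83 on those of day 14 and 11.14 and 11.38 on those of day 35. The values of the 3 ages did not overlap, being lowest at day 10 and highest at day 35. The change was 0.88 (SE 0.16, limma adjusted p = 0.0234). Vps26c, of the related retriever complex, rose by 1.03 (SE 0.21, limma adjusted p = 0.0282), but its dimmer probe gave -0.15. Vps37d, of ESCRT-I, changed by -0.95 (SE 0.20, limma adjusted p = 0.0288), from 6.07 and 6.35 to 5.26 and 5.25.

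Of the 17 sorting nexins, 3 rose and 1 fell. Snx10, which acts at endosomes and in bone-resorbing cells, read 8.65 and 8.84 (day 10), 8.66 and 8.96 (day 14) and 9.90 and 9.50 (day 35) in wild type and knockout. The day 35 arrays were both above the rest, with the wild type the higher. The change was 0.96 (SE 0.22, limma adjusted p = 0.0358). Snx12 and Snx16, both of endosomes, rose by 0.80 and 0.79 (limma adjusted p = 0.0399 and 0.0307). Snx17, which recycles receptors of the LDL receptor family, changed by -0.62 (SE 0.15, limma adjusted p = 0.0428) on a probe of high signal and by 0.97 on a dimmer probe (limma adjusted p = 0.0583), so its direction rests on the probe chosen.

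The SNAREs, 11 Stx and 7 Vamp genes, gave 2 rising genes and 1 falling gene. Stx7, a syntaxin of late endosomes, read 9.12 (wild type) and 8.63 (knockout) on the day 10 arrays, 8.78 and 9.19 on those of day 14 and 10.07 and 9.80 on those of day 35. Both day 35 arrays were above the rest, and the genotypes changed order between ages. The change was 1.06 (SE 0.25, limma adjusted p = 0.0379). Stx1a, the plasma membrane syntaxin of transmitter release, read 7.95 and 8.19, then 8.06 and 8.14, then 7.06 and 7.25. It was lowest on both day 35 arrays and higher in the knockout of each pair. The change was -0.91 (SE 0.16, limma adjusted p = 0.0205). Vamp3, a SNARE of recycling endosomes that takes part in delivering proteolipid protein in oligodendrocytes, rose by 0.77 (SE 0.20, limma adjusted p = 0.0481), from 10.44 and 9.84 to 10.92 and 10.90.

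**Figure D2:**
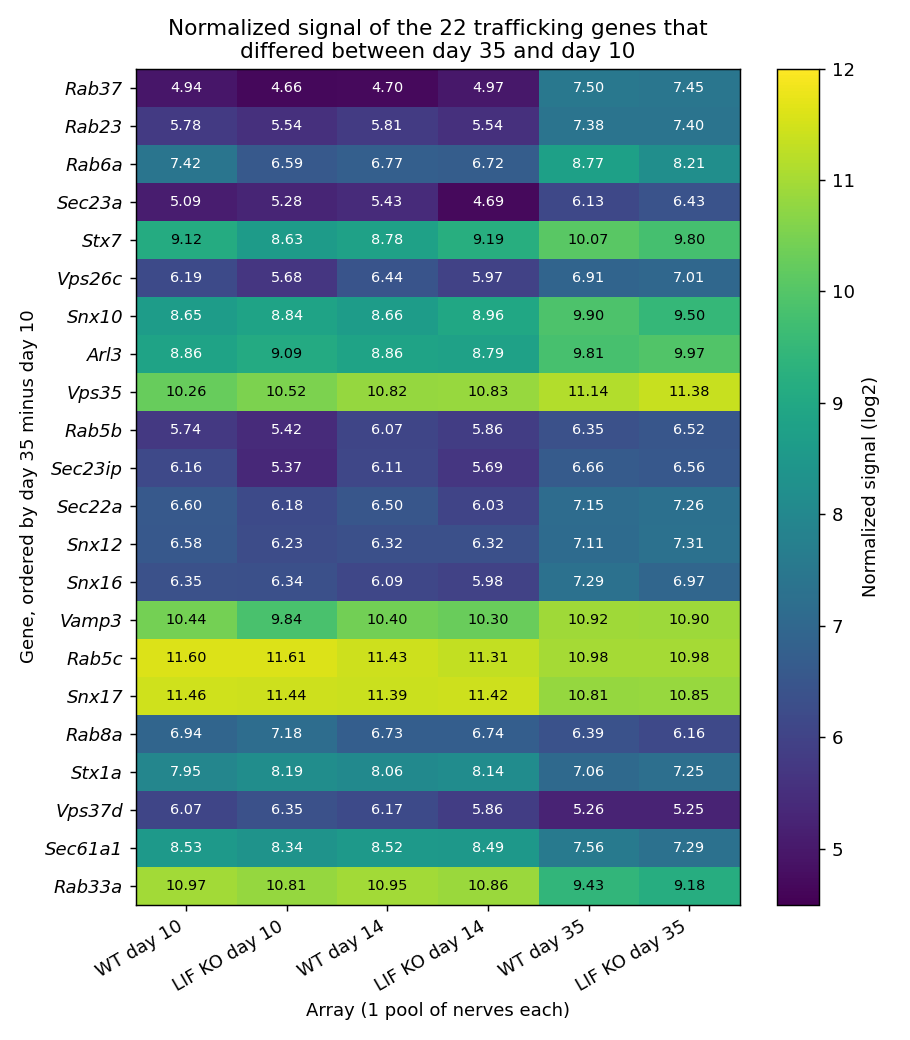
Normalized log2 signal on each of the 6 arrays for the 22 genes that differed between day 35 and day 10, ordered by the size of the change, with each value printed in its cell. Rab37 and Rab23 are bright on the 2 day 35 arrays alone, while Vps35 lies at intermediate values on the day 14 arrays.

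These calls rest on few arrays. Without either array of day 10, 0 of the 127 genes and 0 of the 13827 probes passed (1 residual degree of freedom); 3 genes passed without the knockout array of day 35, 11 without its wild-type array and 15 without either array of day 14. Rab23, Rab33a, Rab6a, Sec61a1 and Stx1a kept their call under all 8 alternative settings of processing; 16 others lost it under at least 1, and nothing is read from those settings for Rab37. The direction was the same in both genotypes for all 22, which is part of how they passed, and for 105 of 127 trafficking genes, against 5181 of 6616 named genes.

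**Figure D3:**
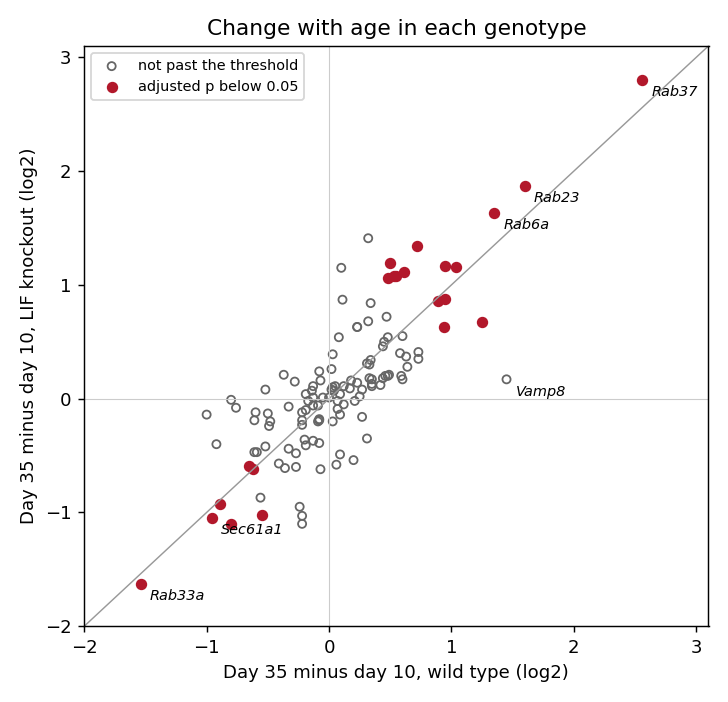
Change in log2 signal from day 10 to day 35 in the knockout against that in the wild type, one point per tested gene, with the line of equality and the genes with an adjusted p below 0.05 filled. Rab23 and Rab6a lie near the line at the top, with Rab37 above them, and Rab33a at the bottom, and Vamp8, which did not pass, lies far to the right of it.

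Day 35 against day 14 uses the same day 35 arrays, so it is not a second measurement of the change. Here 16 genes passed (12.6%, against 14.9% of all probes), 12 higher (9.45%, against 7.75%) and 4 lower (3.15%, against 7.15%). Without Rab37 it was 15 genes, 11 higher and 4 lower. With no normalization between arrays 5 were higher and 4 lower, and the median of all probes was -0.08. With the authors' scaling it was 5 and 8, and the median was -0.08 over the 8364 probes tested there. The 11 genes that passed both are 50% of the 22 and 68.8% of the 16, with Rab37 counted in each. The values against day 14 were 1.75 for Rab6a, 1.72 for Rab23, 1.09 for Snx16, 1.06 for Arl3, -1.60 for Rab33a, -1.08 for Sec61a1 and -0.95 for Stx1a. Sec23a stood at 1.22 and Rab37 at 2.64, but each was not above background on 1 of the day 14 arrays; the Sec23a call held under 2 of 7 settings, and the Rab37 value is a description. The genes that passed here alone were Snx1 (0.86, limma adjusted p = 0.0466) and Snx2 (0.85, limma adjusted p = 0.0348), the membrane-bending partners of retromer, Sec62 (0.82, limma adjusted p = 0.0327), which acts beside the Sec61 channel, Rab9b (0.74, limma adjusted p = 0.0356), of late endosomes, and Rab21 (-0.75, limma adjusted p = 0.0436), of integrin traffic. Without 1 array at a time, 0 to 6 genes passed: 6 without the wild-type array of day 35, 1 without its knockout array and 0 without any other.

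Day 14 against day 10 is the age comparison within 1 slide. No trafficking gene passed, and 0 of 13827 probes did (background 0%). At an unadjusted limma p below 0.05 there were 13 genes (10.2%) and 12.4% of all probes; the lowest belonged to Vps39, a tether of lysosomes, at 0.75 log2 (limma adjusted p = 0.322), which was not detected on the wild-type array of day 10. Among genes detected on every array, the 4 highest and 4 lowest values were 0.86 for Vps52, 0.58 for Vamp8, 0.56 for both Snx15 and Stx5a, -0.54 for Arf2, -0.52 for Rab15, -0.51 for Sec62 and -0.47 for Snx1. Arf2, a Golgi GTPase, read 10.41 and 10.47 at day 10 and 9.96 and 9.84 at day 14, then 10.32 and 10.28 at day 35. Both day 14 arrays were below the other 4. Sec62 and Snx1 were likewise lowest on both day 14 arrays.

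Between genotypes, taken over the 3 ages, no trafficking gene differed: 0 of 127 passed, as did 0 of 13827 probes (background 0%; limma). At an unadjusted limma p below 0.05 there were 5 trafficking genes (3.94%) and 520 probes (3.76%). The count of trafficking genes was also 0 under the other settings of scaling, background, filter and probe choice; leaving out an array or age leaves too few degrees of freedom for its count of 0 to bear on this. The median difference, knockout minus wild type, was -0.04 log2, with a range from -0.48 to 0.93. The knockout was lower at all 3 ages for 23 genes (18.1%; 11.4% of named genes) and higher at all 3 for 10 (7.87%; 11.7%).

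Vps52, a subunit of the GARP tether at the Golgi, stood furthest from 0 and higher in the knockout. It read 5.16 (wild type) and 6.31 (knockout) on the day 10 arrays, 6.46 and 6.72 on those of day 14 and 4.97 and 6.35 on those of day 35. The knockout was the higher of each pair, and the groups overlapped because the wild type of day 14 exceeded the knockout of days 10 and 35. The difference over ages was 0.93 (limma adjusted p = 0.989), and its dimmer probe gave -0.75, -0.22 and 0.15 at the 3 ages. Rab9b differed by 0.36, 0.42 and 0.42 (5.73 against 6.09, 5.47 against 5.89, 6.21 against 6.63). Vamp8, of endosomes and secretory granules, was at 0.20 and Snx3, a cargo adaptor of retromer, at 0.18. Lower in the knockout were Arl2bp (-0.48), a binding partner of Arl2, Rab6a (-0.48, and -0.17 on its dimmer probe), Sec23ip (-0.44) and Vps33a (-0.39), of the tethers of endosomes and lysosomes. Arl2bp was at -0.87, 0.17 and -0.75 at the 3 ages.

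**Figure D4:**
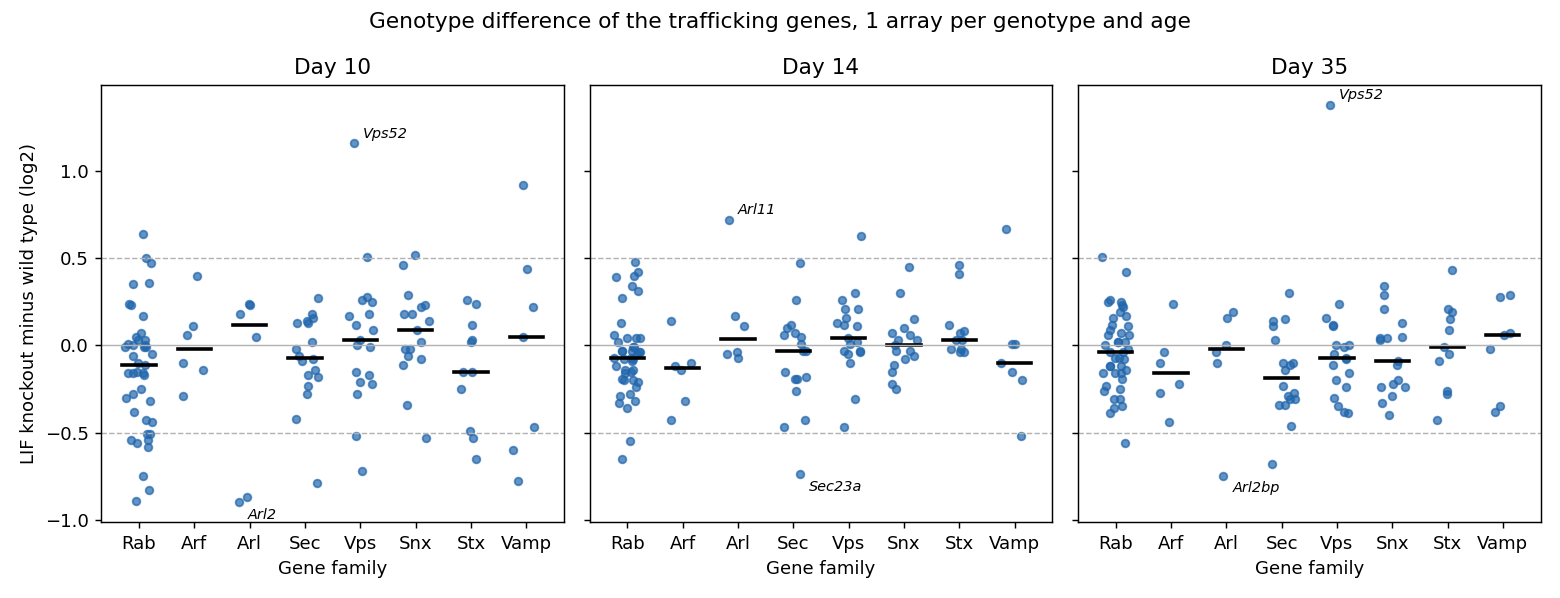
Knockout minus wild type in normalized log2 signal at each age for the 127 tested genes by family, 1 array per genotype, with family medians as bars and dashed lines at 0.5 log2 units either way. The spread is widest at day 10, and Vps52 is the highest point at days 10 and 35.

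At a single age 1 array faces 1 array, so the differences are values with no test. At day 10, 19 of the 125 genes detected on both arrays were more than 0.5 log2 units lower in the knockout (15.2%, against 9.52% of probes) and 6 were that much higher (4.80%, against 9.27%). With no normalization between arrays the counts over all 127 were 8 lower and 12 higher and with median centring 9 and 11, as the median of all probes stood at 0.13 and 0.08; relative to that median they were 14 lower and 7 higher under both. The authors' scaling gave 11 lower and 2 higher, no background correction 11 and 3, and a normexp offset of 50 gave 7 and 3, so the number of lower genes depends on the processing. The lowest were Arl2, a GTPase of tubulin folding, at -0.90 (10.20 in the wild type and 9.30 in the knockout), Rab6b, the neuronal form of Rab6, at -0.89 (8.84 and 7.94), Arl2bp at -0.87 (9.69 and 8.82) and Rab6a at -0.83. The highest were Vps52 at 1.16, Vamp8 at 0.92 (7.43 and 8.36), Rab36 at 0.64 and Snx18 at 0.52. Arl2 of the day 10 knockout was close to both day 35 arrays (9.20 and 9.16), whereas the wild type of day 10 was close to both day 14 arrays (10.25 and 10.20). Vamp8's dimmer probe went the other way, at -0.76. The 11 oligodendrocyte markers had lower summed signal in the same array, as given above, and their part in these values was not tested.

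At day 14, 3 of 122 genes were lower by that much (2.46%, against 4.48%) and 2 higher (1.64%, against 4.42%). The lowest were Rab9 at -0.65, Rab11a, of recycling endosomes, at -0.55, Vamp7, a SNARE of late endosomes, at -0.52 and Sec22a at -0.47. The highest were Vamp5 at 0.67, Vps39 at 0.63, Rab27a, of secretory lysosomes, at 0.48 and Sec22c at 0.47. Vamp5, a VAMP first described in muscle cells, was at -0.78 at day 10 and -0.38 at day 35, so its sign turned between ages. The 8 measured microglial markers had median differences of -0.09, 0.95 and -0.50 at days 10, 14 and 35, with a summed signal at day 14 of 3430 in the knockout against 1606; their part in the values of Vamp5, Vps39 and Rab27a was not tested. At day 35, 3 of 127 were lower (2.36%, against 6.02%) and 2 higher (1.57%, against 6.31%). Arl2bp was at -0.75, Sec24d and Sec24c, cargo subunits of the COPII coat, at -0.68 and -0.46 and Rab6a at -0.56. Vps52 was at 1.38, Rab15 at 0.51, Stx18, of the endoplasmic reticulum, at 0.43 and Rab9b at 0.42.

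A term for the genotype difference of day 10 against days 14 and 35 passed for 0 of 127 genes and 0 of 13827 probes (background 0%; limma, 1 residual degree of freedom). At an unadjusted limma p below 0.05 there were 3 genes (2.36%) and 5.30% of all probes, the lowest for Vamp8 (limma adjusted p = 0.884). The larger number of differences beyond 0.5 log2 at day 10 was therefore not shown to differ from the other ages for any single gene.

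Probes of the same gene were compared where a gene had several. Among the 27 genes with more than 1 tested probe, 24 of 32 dimmer probes had a change from day 10 to day 35 above that of the brightest probe (75%; 61.6% of 1377 dimmer probes of named genes), with a median gap of 0.46 log2 (0.22). Over the 26 linked on all 6 arrays it was 18 (69.2%; 59% of 1161). The other 6, of Rab8b, Snx14, Snx2, Vamp7 and Vps41, were named through the day 35 arrays alone. Probes of 11 genes had opposite signs and stood over 0.5 apart in at least 1 comparison: Arl2bp, Rab10, Rab24, Sec23b, Sec61a2, Snx17, Vamp8, Vps16, Vps26c, Vps41 and Vps52. For Rab10, of the secretory and endocytic routes, the change was -0.38 on the brightest and 0.93 on the other probe (limma adjusted p = 0.0240). Snx2 rose by 1.85 on its dimmer probe linked on all 6 arrays, against 0.54 on the brightest. The other dimmer probe of Snx2 (0.99) and the dimmer probe of Vps41 (1.38) were named through the day 35 arrays alone. A high value there was part of how these entered, so their changes are a description.

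**Figure D5:**
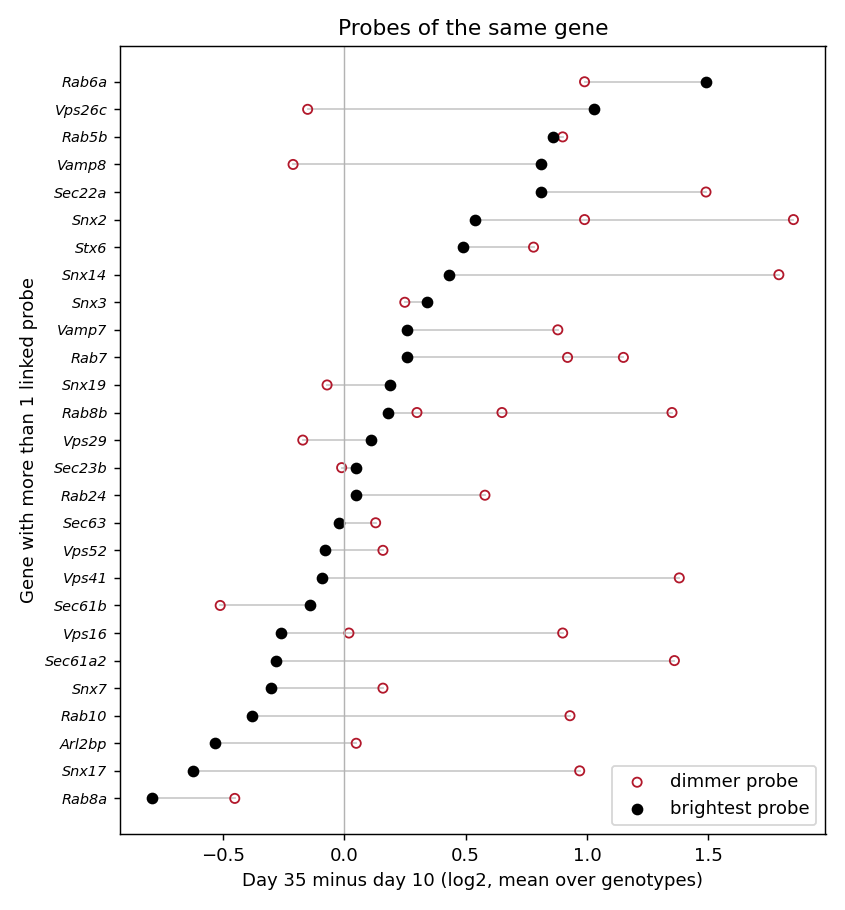
Difference in log2 signal, day 35 minus day 10, for every tested probe of the 27 genes with more than 1, with the brightest probe filled. Probes of Rab5b nearly coincide, whereas those of Snx17 and Sec61a2 lie on both sides of 0. Those of Vps41 do too, but its dimmer probe was named through the day 35 arrays alone.

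Other genes of the same routes were read from a list of 110 genes outside the rule, of which 73 were measured. From day 10 to day 35, 10 of the 73 rose and 1 fell (15.1%, against 20.8% of all probes), with a median of 0.16. Of all probes, 10.6% were higher and 10.2% lower. How the split by direction depends on scaling was not tested for this list. By group, lysosome and sorting receptors had 3 of 12 rising, Rab regulators 2 of 9, and clathrin and adaptors 1 of 16. SNARE partners had 1 of 14, COPI coat 1 of 9 (and 1 falling), ESCRT 1 of 7 and exocyst 1 of 6. Gdi2, which extracts Rab proteins from membranes, rose by 1.44 (limma adjusted p = 0.0229) and Sorl1, a sorting receptor, by 1.22 (limma adjusted p = 0.0227), while Copz1, a COPI subunit, changed by -1.13 (limma adjusted p = 0.0180). The others that rose were Cltb, Copg2, Snap23, Exoc8, Rabep1, Stam2, M6pr and Sort1. Between genotypes over ages 0 of the 73 passed (background 0%).

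The named genes whose pattern over the 6 arrays was most like that of a family's leading gene, by Pearson correlation, were Rnf103 for Rab37 (r = 0.997), Rassf3 for Arl3 (0.999), Grk4 for Arf4 (0.998), Acadl for Sec23a (0.997), Fbxo8 for Vps26c (0.999), Rnf112 for Snx10 (0.993), Tulp4 for Stx7 (0.998) and Sptbn1 for Vamp8 (0.990). These are the highest of all 6616 named genes over 6 arrays that share slides and ages, given as a description.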

How the data were processed

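Total RNA of pooled optic nerves was amplified, biotin-labelled and hybridised to Illumina MouseRef-8 arrays, read in 1 colour. Per the file headers, the authors exported the unnormalized mean bead intensity with BeadStudio 1.5.0.34; the deposited files also hold a detection score as a fraction from 0 to 1, read as 1 minus the detection p. The authors' deposited table holds the same intensity times 1 factor per array; its rule for blank rows was not stated in the labels or headers. It alone names probes, so its rows were linked to the array files by value (within 0.05 signal units): 8934 probes were linked, 8047 with 1 symbol. A gene number inside the design identifier, where present (3182 probes), equalled that of the named gene in 97.1%.

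Intensities were background-corrected (normexp from detection p, offset 16), quantile normalized and taken to log2 with limma 3.58.1 in R 4.3.3. Probes detected (p below 0.05) on at least 2 of 6 arrays, 13827, were fitted with day and genotype (2 residual and 3.68 prior degrees of freedom; two-sided; Benjamini-Hochberg). The p-values measure scatter of single pools around this fit, with ages serving as replicates of genotype and genotypes of age. The scripts were tested on simulated data. Named genes were, per comparison, up to 8 past the threshold in each direction, or the 4 largest where fewer than 4 passed, the 4 highest and lowest at each age, the 2 of highest signal per family and those with discordant probes; other genes past the threshold were named after their values were seen. The members and lists were chosen with earlier results of these data known. Alternatives changed the detection filter, scaling, background correction, offset, probe choice, ages and slide; leaving out single arrays was chosen after seeing the data. Chromosomes and promoter windows are from RefSeq, GRCm38.p6. Probes without a name were tested and not reported.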

Additional observations from a re-analysis of the deposited data

How the results depend on the processing

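From day 10 to day 35, 22 trafficking genes passed; 13 did with no filter on detection and 12 with no normalization between arrays, of which 11 and 10 were among the 22. With the authors' scaling 26 passed, of which 11 were among the 22. The number was 20 to 24 under the other settings, with 20 or 21 of the 22 among them. Leaving out 1 array gave 0 to 15. From day 14 to day 35, 16 passed; 9 did with no normalization and 0 to 6 without 1 array, and the other settings gave 12 to 21. Of the 13 that passed against day 14 with the authors' scaling, 9 were among the 16. Leaving out an array leaves 1 residual degree of freedom, and the lone array of its age is assumed to vary like the others. The median genotype difference at day 14 was -0.24 with no normalization against -0.03, when that of all probes was -0.21. Vamp8 turned between genotypes, to -0.17, without day 10 or either of its arrays (-0.17 to 0.47 without 1 array), and Snx17 turned to 0.18 from day 10 to day 35 with the mean of all its probes. No trafficking gene passed between genotypes or from day 10 to day 14 under any setting run, but where an array or age was left out a count of 0 shows no stability. The number of genes over 0.5 log2 lower in the knockout at day 10 was 19, and 7 to 18 under the alternatives. No paired analysis was possible because the labels give no replicate numbers to use as a block; the fit with day as a term already compares the genotypes within each age. The causes were not tested.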

Other observations

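Vps52 lies in the histocompatibility region of chromosome 17, and genes near it were read in the same way, after its value was seen. By gene order in GRCm38.p6, Ring1, a Polycomb protein 2 protein-coding genes away, was higher in the knockout by 1.53, 0.58 and 0.89 log2 at days 10, 14 and 35 (detected on 4 of 6 arrays), and Wdr46, 3 genes away on the other side, by 1.41, 0.26 and 0.46. Of the 12 measured genes within 8 steps of Vps52, 4 were above 0 at all 3 ages and 1 below. Among all named genes the shares were 11.7% above and 11.4% below. The 10 other than Ring1 and Wdr46 had differences over ages from -0.18 to 0.29. Vps52 itself rests on its brightest probe, as its dimmer probe gave -0.75, -0.22 and 0.15 at days 10, 14 and 35. Rps18 was at 0.07, 0 and -0.04, H2-Ke6 at 0.05, 0.02 and 0.09, and H2-K1 at -0.16, 0.28 and -0.32. None of these differences has a test at a single age. Sec14l2, a measured trafficking gene 7 protein-coding genes from Lif on chromosome 11, was at 0.13, 0.26 and 0.15.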
